A study of Danio rerio with 6 samples.

Results

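The genes described here are acat2, hmgcs1 and msmo1, which encode enzymes of cholesterol synthesis. Their probe sets were found by gene symbol, as written or updated through the gene identifier, in the comparison tables that the authors deposited. Each gene had 1 probe set, so there were 3 members among 2326 probe sets named with 1 gene and 15502 probe sets in all, controls left out. All 3 passed the filter on low signals, which kept 9302 probe sets for the tests. The file calls msmo1 by its older symbol sc4mol.

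Gene expression was measured on 6 Affymetrix arrays, in total RNA of whole zebrafish embryos at 72 h after fertilization. ERbeta2 MO embryos had received 50 uM of a morpholino, a synthetic antisense oligonucleotide, that blocks translation of the estrogen receptor ERbeta2. The coMO embryos had received a standard control morpholino at 50 uM, and uninjected embryos had received none. The titles of the uninjected arrays also carry the tag 50uM, which was not read as a dose. There were 2 arrays in each of the 3 groups. No strain or transgene is named in the labels. Eggs came from a pool over several aquaria and injections ran up to the 4-cell stage. The arrays are titled as biological replicates, but no label states separate spawnings for them. Their p-values therefore rest on how far these particular samples vary and on a prior spread pooled over probe sets. Precision is limited by having so few arrays.

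Cells build cholesterol from acetyl-CoA. The cytosolic thiolase acat2 joins acetyl-CoA units to acetoacetyl-CoA, hmgcs1 adds a further unit to give HMG-CoA, and HMG-CoA reductase then commits the carbon to the mevalonate branch. Much later in the pathway, after the sterol rings have closed, msmo1 oxidises methyl groups on the ring carbons of the first sterols. In mammals these genes are switched on together by sterol regulatory element binding proteins when membrane sterol is low. A zebrafish embryo of this age also draws cholesterol from its yolk, through lipoproteins.

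Signals of all 3 genes fell in ERbeta2 MO embryos against both kinds of control, on the arrays as the authors scaled them. The fall was 2.44-fold for hmgcs1, 1.73-fold for acat2 and 1.66-fold for msmo1 against coMO, and 2.81-fold, 1.94-fold and 1.91-fold against uninjected embryos. Scaling the arrays on the spiked control RNAs shrank these differences. After scaling on the poly-A spikes, which are RNAs added from outside, only the hmgcs1 difference from uninjected embryos passed the test among the 6 differences of the 3 genes from the controls. That difference was -0.88, beside -0.39 between ERbeta2 MO and coMO and -0.49 between coMO and uninjected embryos, neither of which passed.

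The first enzyme of the route, acat2, gave signals of 504 and 416 on the ERbeta2 MO arrays. Its signals were 855 and 758 on the coMO arrays and 960 and 855 on the uninjected arrays. Both ERbeta2 MO arrays were thus below the other 4 arrays, with no overlap. The ERbeta2 MO mean was 460 ± 61.8, the coMO mean 807 ± 68.1 and the uninjected mean 907 ± 74.0 (SD, n = 2 each). On the log2(signal + 16) scale, acat2 differed from coMO by -0.79 (SE 0.153, 95% interval -1.11 to -0.47, limma adjusted p = 0.000168). The difference from uninjected embryos was -0.96 (95% interval -1.28 to -0.64, limma adjusted p = 1.92e-05). Adding 16 before the log understates folds, and more so the dimmer the probe set.

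The HMG-CoA synthase hmgcs1 had the largest difference of the 3 in both comparisons. It gave 312 and 290 in ERbeta2 MO, against 744 and 773 in coMO and 970 and 790 in uninjected embryos. The ERbeta2 MO arrays lay close to each other and below the other 4. The group means were 301 ± 15.98, 758 ± 20.5 and 880 ± 127 (SD, n = 2 each). The spread between the uninjected arrays was thus the widest of the 3 groups. The log2 difference of hmgcs1 from coMO was -1.29 (SE 0.155, 95% interval -1.61 to -0.97, limma adjusted p = 5.09e-07). From uninjected embryos it was -1.49 (95% interval -1.82 to -1.17, limma adjusted p = 5.96e-08).

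The methylsterol oxidase msmo1 gave 180 and 214 in ERbeta2 MO, 369 and 307 in coMO, and 367 and 411 in uninjected embryos. Here too the ERbeta2 MO arrays were below the other 4, while the coMO and uninjected arrays overlapped. The means were 197 ± 24.3, 338 ± 43.7 and 389 ± 30.8 (SD, n = 2 each). The log2 difference of msmo1 was -0.73 from coMO (SE 0.181, 95% interval -1.11 to -0.36, limma adjusted p = 0.00167). It was -0.93 from uninjected embryos (95% interval -1.31 to -0.56, limma adjusted p = 0.000173).

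**Figure D1:**
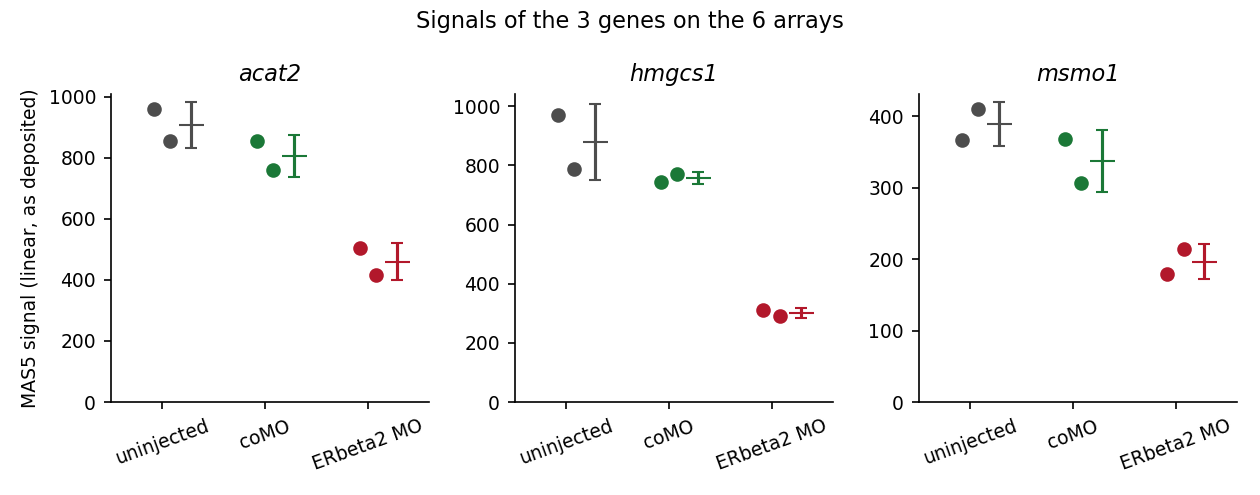
MAS5 signal on a linear axis for acat2, hmgcs1 and msmo1 on each of the 6 arrays, with the mean and SD of each group (n = 2) beside the points. For each gene both ERbeta2 MO arrays sit below the 4 control arrays, as with hmgcs1 at 312 and 290 against 744 or more.

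These falls have to be read against a wide shift across the arrays. Of all tested probe sets, 26.8% were called lower and 29.5% higher in ERbeta2 MO against coMO, and 26.5% and 30.4% against uninjected embryos. For 37% and 36.8% of tested probe sets, both ERbeta2 MO arrays lay below both coMO or both uninjected arrays. Names were available only from tables that list probe sets at a deposited fold of 0.5 or below, or of 2 or above, so a named gene differed between groups by that choice. Among the 1872 named and tested probe sets, 44.4% were called lower against coMO and 44.6% against uninjected embryos. The call of 3 out of 3 is therefore a description of these genes and carries no further weight.

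Within the spread of all tested probe sets, hmgcs1 stood further out than acat2 and msmo1. A lower difference from coMO than that of hmgcs1 was found for 5.91% of tested probe sets, against 14.1% for acat2 and 15.6% for msmo1. Against uninjected embryos the shares were 4.59%, 10.2% and 10.7%. The median difference over all tested probe sets was 0.05 in both comparisons, and the same ERbeta2 MO arrays entered both.

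**Figure D2:**
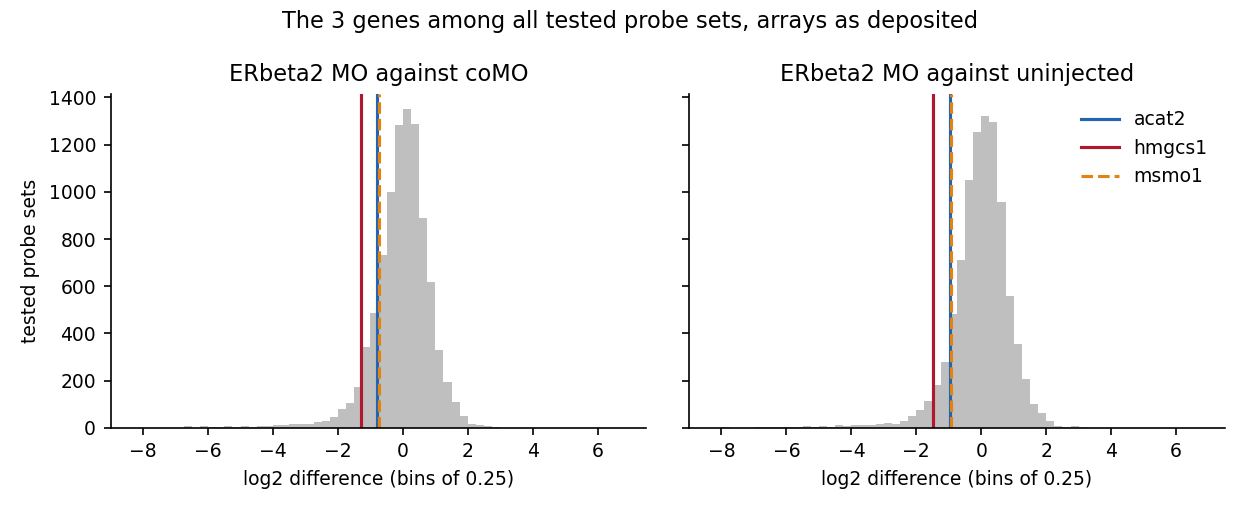
Histograms of the log2 differences of the 9302 tested probe sets in bins of 0.25, for ERbeta2 MO against coMO and against uninjected embryos, with vertical lines at the 3 genes. The hmgcs1 lines, at -1.29 and -1.49, lie further into the lower tail than those of acat2 and msmo1.

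The control injection was set against no injection to see what injecting itself went with. Against uninjected embryos, coMO embryos differed by -0.17 for acat2 (95% interval -0.49 to 0.15), by -0.20 for hmgcs1 (95% interval -0.53 to 0.12) and by -0.20 for msmo1 (95% interval -0.57 to 0.18). None of the 3 was called, with limma adjusted p of 0.876, 0.841 and 0.873. Across all tested probe sets limma called 0.215% lower and 0.29% higher in this comparison, and 7.89% had an unadjusted p under 0.05. The coMO arrays of hmgcs1 lay below both uninjected arrays, and those of acat2 did so by less than 1 signal unit. In 16.8% of tested probe sets both coMO arrays lay below both uninjected arrays. These values are for the arrays as deposited. The poly-A spikes were brighter in coMO than in uninjected embryos by 0.29. Scaled on them, coMO differed from uninjected embryos by -0.45 for acat2, -0.49 for hmgcs1 and -0.47 for msmo1. None of these differences passed (limma adjusted p = 0.599 for each).

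The authors' deposited table for ERbeta2 MO over coMO gives linear folds of 0.474 for acat2, 0.375 for hmgcs1 and 0.496 for msmo1. Their deposited table for ERbeta2 MO over uninjected embryos gives 0.384, 0.325 and 0.393 in the same order. In both of the authors' deposited tables hmgcs1 has the lowest fold of the 3. Each of these deposited folds is lower than the fold from the fit on log2(signal + 16). The fit gave 0.577 for acat2, 0.409 for hmgcs1 and 0.602 for msmo1 against coMO. Against uninjected embryos it gave 0.514, 0.355 and 0.525. With an offset of 1 the log2 differences from coMO were -0.81 for acat2, -1.33 for hmgcs1 and -0.78 for msmo1. With the offset of 16 they were -0.79, -1.29 and -0.73. How the deposited folds were computed is not given in the sources used, and the cause of the gap was not tested. None of the 3 is listed in the authors' deposited table of uninjected over coMO.

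Ratios of probe sets on the same array do not move with the scaling of that array. The ratio of hmgcs1 to acat2 signal was 0.620 and 0.696 on the ERbeta2 MO arrays, 0.870 and 1.02 on the coMO arrays, and 1.01 and 0.924 on the uninjected arrays. The ratio of hmgcs1 to msmo1 was 1.74 and 1.35, then 2.02 and 2.52, then 2.64 and 1.92 in the same order. Both ratios were lower on the ERbeta2 MO arrays than on the other 4, with no overlap. Mean log2 ratios against coMO were lower by -0.52 and -0.55, so on these arrays the hmgcs1 signal fell further than those of acat2 and msmo1. Whether the genes differ in the size of their change was not tested. The ratio of acat2 to msmo1 was 2.81 and 1.95 in ERbeta2 MO, 2.32 and 2.47 in coMO, and 2.61 and 2.08 in uninjected embryos, and these groups overlapped. With 2 arrays against 2, an exact two-sided permutation test of such a ratio cannot go below p = 0.333, so these ratios are descriptions.

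Control RNAs on the same arrays were dimmer in ERbeta2 MO. The 24 probe sets of the poly-A spikes dap, lys, phe and thr, which enter before labelling, had a mean log2 signal lower than in coMO by -0.93 and lower than in uninjected embryos by -0.64. The hybridization controls bioB, bioC, bioD and cre, which enter after labelling, have 18 probe sets. They differed by -0.45 and -0.37. The other poly-A spike on the arrays, trp, was near background and was not used for scaling. It differed by -0.25 from coMO and by 0.02 from uninjected embryos. Among the spikes used, lys was dim too, with mean log2 signals of 5.76 to 6.97 per array. The 4 poly-A spikes differed from coMO by -0.70 (phe) to -1.05 (thr), so the acat2 and msmo1 differences, at -0.79 and -0.73, lay inside the range of the spikes and that of hmgcs1, at -1.29, lay beyond it. From uninjected embryos the spikes differed by -0.56 (lys) to -0.70 (thr), and the differences of acat2, msmo1 and hmgcs1, at -0.96, -0.93 and -1.49, lay beyond that range.

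The ends of the GAPDH and actin control transcripts also differed. The 3' probe set of GAPDH was lower than in coMO by -1.01 and its 5' probe set by -1.53, and the muscle actin acta1 gave -0.74 and -1.66. The ratio of 3' to 5' signal of GAPDH, which rises when RNA is shortened, was 2.14 and 2.15 in ERbeta2 MO, 1.66 and 1.34 in coMO, and 1.47 and 1.35 in uninjected embryos. The same ratio for acta1 was 13.6 and 11.6, then 7.64 and 5.72, then 5.41 and 10.0. Both ratios were higher on the ERbeta2 MO arrays than on the other 4. The part of RNA quality in the falls of acat2, hmgcs1 and msmo1 was not tested, and where their probes lie along the transcripts was not analysed here.

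**Figure D3:**
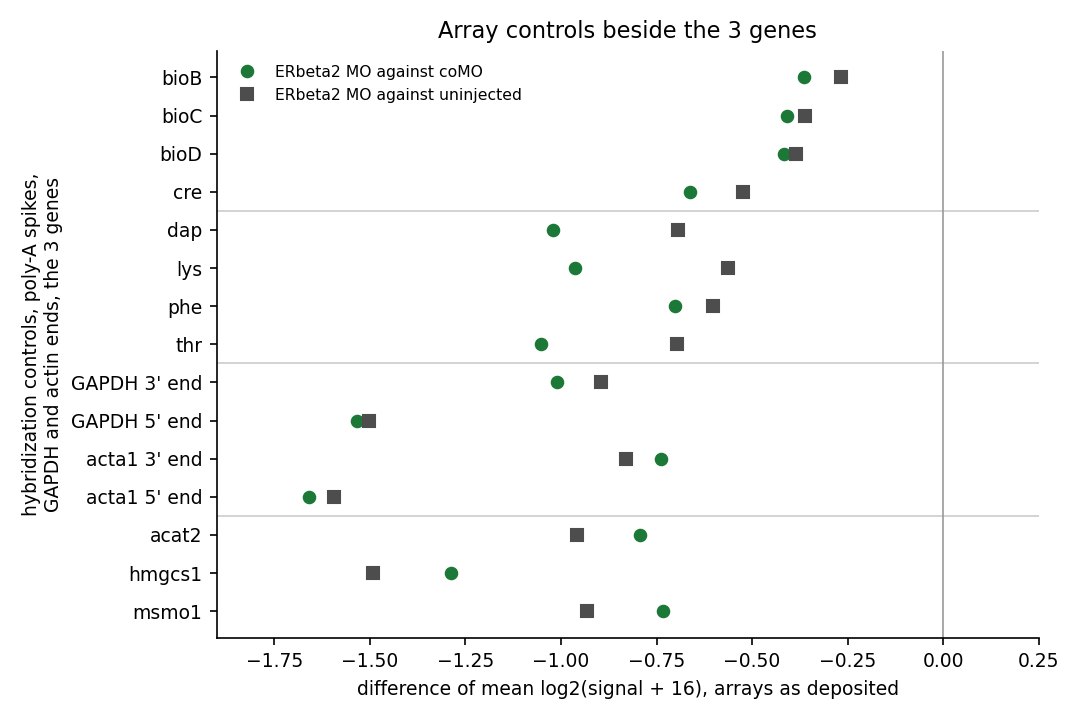
Difference of mean log2(signal + 16) between ERbeta2 MO and coMO (circles) or uninjected embryos (squares) for the array controls and the 3 genes, on the arrays as deposited. Against coMO the poly-A spikes lie between -1.05 and -0.70, a range that holds acat2 and msmo1, while hmgcs1 is lower. Against uninjected embryos the spikes lie between -0.70 and -0.56, and all 3 genes are lower.

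When each array was instead scaled on its hybridization controls, hmgcs1 remained lower than in coMO by -0.85 (95% interval -1.28 to -0.42, limma adjusted p = 0.000880). The differences of acat2, -0.35 (95% interval -0.77 to 0.07, limma adjusted p = 0.139), and of msmo1, -0.31 (95% interval -0.74 to 0.13, limma adjusted p = 0.210), did not pass. Against uninjected embryos all 3 passed under this scaling. The differences were -1.14 for hmgcs1 (limma adjusted p = 3.42e-05), -0.60 for acat2 (limma adjusted p = 0.0142) and -0.58 for msmo1 (limma adjusted p = 0.0201). With this scaling 11.6% of tested probe sets were called lower against coMO and 12.6% against uninjected embryos. On the scaled log2 values both ERbeta2 MO arrays of all 3 genes still lay below the other 4. That held for 18.2% of tested probe sets against coMO and 19.3% against uninjected embryos.

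Scaled on the poly-A spikes, hmgcs1 read 8.73 and 8.89 on the log2 scale in ERbeta2 MO, 9.32 and 9.07 in coMO, and 9.98 and 9.40 in uninjected embryos. The groups still did not overlap, where 7.17% of tested probe sets had both ERbeta2 MO arrays below both coMO arrays and 11.6% below both uninjected arrays. The difference of hmgcs1 from coMO was -0.39 (95% interval -0.95 to 0.18, limma adjusted p = 0.213) and did not pass. That from uninjected embryos was -0.88 and passed (limma adjusted p = 0.00516). Between coMO and uninjected embryos hmgcs1 differed by -0.49 on the same scale (95% interval -1.05 to 0.07, limma adjusted p = 0.599), which did not pass. On this scale 4.47% of tested probe sets were called lower against coMO and 6.63% against uninjected embryos.

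For acat2 and msmo1 the poly-A scaling moved the difference from coMO to the other side of 0. For acat2 the scaled values were 9.40 and 9.40 in ERbeta2 MO, 9.52 and 9.04 in coMO, and 9.96 and 9.51 in uninjected embryos. For msmo1 they were 7.97 and 8.47, then 8.35 and 7.80, then 8.61 and 8.48. For both genes the ERbeta2 MO arrays overlapped with coMO and lay below the uninjected arrays, by a margin of under 0.1 for msmo1. The difference from coMO turned positive, at 0.12 for acat2 (95% interval -0.44 to 0.68, limma adjusted p = 0.716) and 0.15 for msmo1 (95% interval -0.43 to 0.72, limma adjusted p = 0.657). From uninjected embryos the differences were -0.34 (limma adjusted p = 0.303) and -0.33 (limma adjusted p = 0.331). On this scale coMO differed from uninjected embryos by -0.45 for acat2 and -0.47 for msmo1, and neither passed.

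Scaling on the array median or on the spikes shifts all probe sets of an array by nearly the same amount, so it leaves the order of the probe sets almost as it was. The median difference of all tested probe sets from coMO rose from 0.05 as deposited to 0.48 with the hybridization controls and 0.95 with the poly-A spikes. As deposited and over these scalings, the share of probe sets with a lower difference from coMO was 5.91 to 6.02% for hmgcs1. It was 14.1 to 14.5% for acat2 and 15.2 to 15.6% for msmo1. Because the order is nearly fixed in this way, these shares describe where the genes lie and are no test of the falls. Quantile normalization, which is not such a shift, gave shares of 5.35%, 11.3% and 18% for hmgcs1, acat2 and msmo1.

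**Figure D4:**
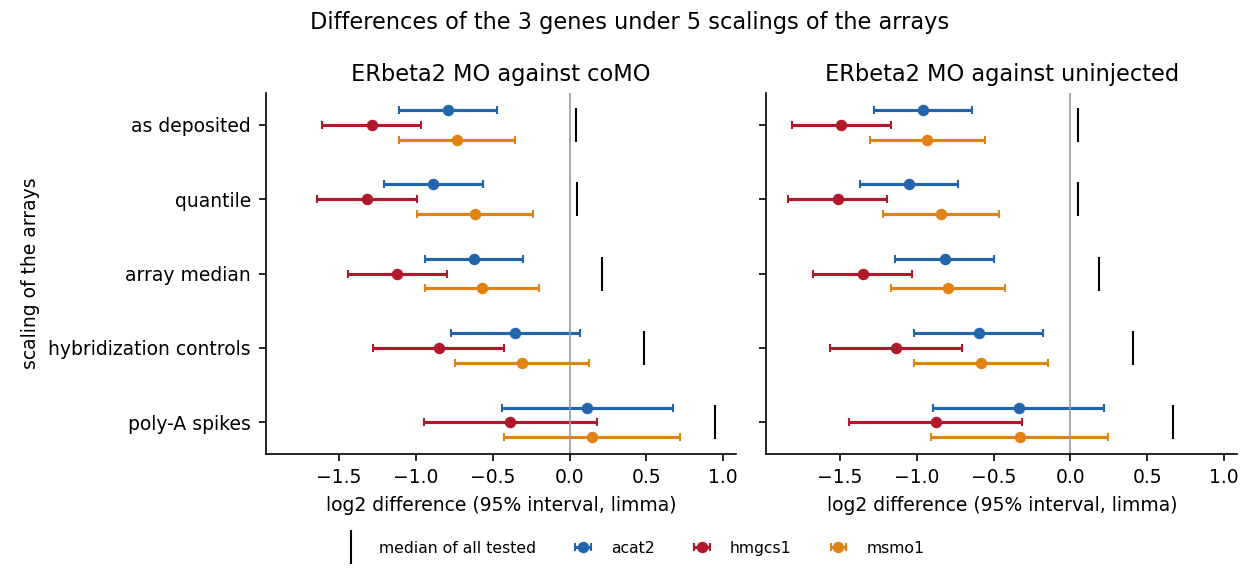
Log2 differences of acat2, hmgcs1 and msmo1 with limma's 95% intervals under 5 scalings of the arrays, for ERbeta2 MO against coMO and against uninjected embryos; black ticks mark the median of all tested probe sets. From the arrays as deposited to the poly-A spikes the hmgcs1 difference from coMO went from -1.29 to -0.39 while the median went from 0.05 to 0.95.

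Other genes of the pathway were taken from a list of 32 symbols that run from acetyl-CoA to cholesterol, older names included. The deposited tables name 6 of these genes on 7 probe sets, and the remaining enzymes, HMG-CoA reductase among them, were not analysed here. Of the 4 probe sets past the filter, 4 were called lower against coMO (median -0.97) and 4 against uninjected embryos (median -1.03). Of all tested probe sets 26.8% and 26.5% were called lower, and of named ones 44.4% and 44.6%. The 4 include acat2, hmgcs1 and msmo1 themselves, and only dhcr7 is added. This count and these medians thus mostly repeat the values already given. Medians over all tested probe sets were 0.05 in both comparisons, and over named ones 0.56 and 0.59. Between coMO and uninjected embryos 0 of the 4 were called, with differences from -0.20 to 0.04.

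The member of that list past the filter besides the 3 genes was dhcr7, the reductase of the last step to cholesterol. It gave 389 and 289 in ERbeta2 MO, 738 and 784 in coMO, and 730 and 750 in uninjected embryos. Its ERbeta2 MO arrays were below the other 4, beside 37% and 36.8% of tested probe sets below both coMO or both uninjected arrays. The log2 difference of dhcr7 was -1.14 from coMO (limma adjusted p = 4.27e-06) and -1.11 from uninjected embryos (limma adjusted p = 6.33e-06). Scaled on the hybridization controls it was -0.71 and -0.75, and both passed (limma adjusted p = 0.00453 and 0.00304). With that scaling 11.6% and 12.6% of tested probe sets were called lower. Scaled on the poly-A spikes the dhcr7 difference was -0.24 and -0.49, and neither passed.

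The remaining 3 probe sets were dimmer and were tested only in a fit without the filter, on the arrays as deposited and not scaled on the spikes. In that fit 22.8% of 15502 probe sets were called lower against coMO and 20.9% against uninjected embryos. The sterol demethylase cyp51 acts before msmo1 in the pathway. A first cyp51 probe set (DrAffx.2.81.A1_at) gave 38.3 and 35.4 in ERbeta2 MO, 118 and 133 in coMO, and 131 and 185 in uninjected embryos. It was lower by -1.42 and -1.70 (limma adjusted p = 0.000579 and 0.000131). The other cyp51 probe set gave 33.6 and 63.6, then 68.0 and 101, then 105 and 94.9. Its difference from coMO, -0.66, did not pass (limma adjusted p = 0.102), and that from uninjected embryos, -0.88, did (limma adjusted p = 0.0335).

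The sterol dehydrogenase nsdhl works with msmo1 in removing methyl groups from the ring. It gave 57.8 and 89.1 in ERbeta2 MO, 214 and 194 in coMO, and 129 and 211 in uninjected embryos, again with no overlap. Past the filter 37% and 36.8% of probe sets had both ERbeta2 MO arrays below both coMO or both uninjected arrays. The share below the filter, where nsdhl lies, was not computed. The nsdhl signal was lower by -1.32 and -1.04 (limma adjusted p = 0.00124 and 0.00632, without the filter). In that fit 6 of the 7 probe sets of the list were called lower against coMO and 7 of 7 against uninjected embryos. Of all probe sets 22.8% and 20.9% were, and the share among named probe sets was not computed for that fit. The 7 include acat2, hmgcs1 and msmo1, and all were named from tables of changed probe sets. These counts are therefore descriptions and carry no further weight. With the hybridization controls 2 of the 4 past the filter, hmgcs1 and dhcr7, were called lower against coMO and 4 against uninjected embryos. With the poly-A spikes these counts were 0 and 1, the latter being hmgcs1.

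**Figure D5:**
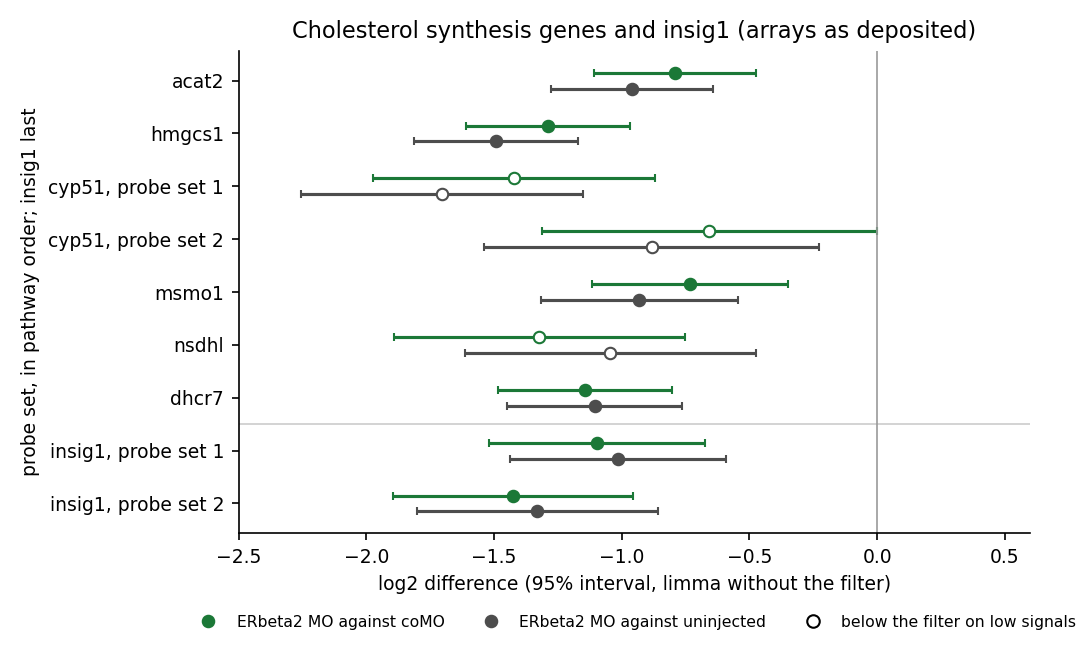
Log2 differences with limma's 95% intervals, in the fit without the filter, for the 7 cholesterol synthesis probe sets in pathway order and the 2 of insig1, against coMO (green) and uninjected embryos (grey). Open points mark probe sets below the filter on low signals; all points lie below 0, from -1.70 for a cyp51 probe set to -0.66 for the other.

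Of 18 symbols for sterol sensing and uptake, the tables name 1 gene, insig1. It encodes an anchor in the endoplasmic reticulum that in mammals holds back the activation of sterol regulatory element binding proteins, and in mammals it is itself induced when sterol is low. A first insig1 probe set gave 116 and 122 in ERbeta2 MO, 273 and 271 in coMO, and 292 and 225 in uninjected embryos. A second gave 87.3 and 71.1, then 257 and 222, then 194 and 255. The ERbeta2 MO arrays were lowest on both. Differences from coMO were -1.10 and -1.43 (limma adjusted p = 7.33e-05 and 9.12e-06), and from uninjected embryos -1.01 and -1.33 (limma adjusted p = 0.000172 and 2.05e-05). Scaled on the hybridization controls, both probe sets passed against coMO, at -0.69 and -1.03 (limma adjusted p = 0.0120 and 0.000381). They also passed against uninjected embryos, at -0.68 and -1.01 (limma adjusted p = 0.0133 and 0.000506). Scaled on the poly-A spikes, neither difference from coMO passed, at -0.24 and -0.60 (limma adjusted p = 0.461 and 0.062). From uninjected embryos the first did not pass, at -0.44 (limma adjusted p = 0.196), and the second did, at -0.78 (limma adjusted p = 0.0192). Of all tested probe sets, 37% and 36.8% had both ERbeta2 MO arrays below both coMO or both uninjected arrays. As deposited 26.8% and 26.5% were called lower, and 44.4% and 44.6% of named ones. With the hybridization controls 11.6% and 12.6% were, and with the poly-A spikes 4.47% and 6.63%. As insig1 was named from tables of changed probe sets, its calls are descriptions.

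Of 21 symbols for cholesterol export, esters and bile acid synthesis, 4 genes were named on 7 probe sets, and all 3 past the filter were called lower in both comparisons, beside 44.4% and 44.6% of named and tested probe sets. The bile acid enzyme cyp8b1.1 had signals of 64.9 and 62.2 in ERbeta2 MO, 504 and 495 in coMO, and 349 and 368 in uninjected embryos on a first probe set. On a second it had 13.8 and 20.8, then 631 and 570, then 543 and 510. These were differences from coMO of -2.70 and -4.22 (limma adjusted p = 6.48e-11 and 8.11e-14), but the second probe set read near the offset of 16 in ERbeta2 MO, so its size depends on the offset. With offsets of 1 and 64 the second difference was -5.06 and -3.03, and the first was -2.96 and -2.14. The lipoprotein receptor scarb1 gave 159 and 146, then 293 and 259, then 360 on each uninjected array, a difference from coMO of -0.79 (limma adjusted p = 0.000908) that was 0.07 with the poly-A spikes. The probe sets below the filter, of cyp27a1.1, cyp27a1.4 and scarb1, had both ERbeta2 MO arrays below both coMO arrays. Among probe sets past the filter 37% did so, and the share below the filter was not computed. These dim probe sets were also named only from tables of changed ones.

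Among 24 symbols for fatty acid synthesis and desaturation the desaturase fads2 was named. It gave 92.3 and 71.6 in ERbeta2 MO, 342 and 433 in coMO, and 285 and 315 in uninjected embryos. Its differences were -2.04 and -1.70 (limma adjusted p = 2.45e-08 and 3.40e-07). Of the thiolases and enzymes of acetyl-CoA and ketone metabolism, 5 of 5 tested were called lower in both comparisons, where 26.8% and 26.5% of all tested and 44.4% and 44.6% of named probe sets were. The mitochondrial thiolase acat1, which catalyses the same reaction as acat2, gave 653 and 641 in ERbeta2 MO, 1657 and 1123 in coMO, and 1417 and 1542 in uninjected embryos. It was lower by -1.06 and -1.17 (limma adjusted p = 9.81e-06 and 2.52e-06). For scp2a, hadhb and acaa2 the differences from coMO were -2.42, -1.58 and -1.34. The apolipoprotein list also holds mttp, which encodes a lipid transfer protein and not an apolipoprotein. Of this list 3 of 3 tested were called lower in both comparisons, beside the same shares. These were apom, mttp and apodb, at -1.41, -1.26 and -1.10 against coMO. The mttp value rests on ERbeta2 MO signals of 69.1 and 172.5, and was -0.69 without the first and -1.83 without the second of these arrays. All differences in this paragraph are for the arrays as deposited, on which the poly-A spikes differed from coMO by -0.93. Values scaled on the spikes are not given for these genes.

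Several organs that make or handle much cholesterol also had lower marker signals on the arrays as deposited. In whole embryos fewer cells of a type and less RNA per cell cannot be told apart. Of 8 tested liver probe sets 7 were called lower and 1, of the copper carrier cp, higher in both comparisons. Of all tested probe sets 26.8% and 26.5% were called lower and 29.5% and 30.4% higher, and of the named ones, from which these lists are drawn, 44.4% and 44.6% were called lower. The summed signal of the liver list ran from 12438 to 12630 in ERbeta2 MO, 41158 to 45937 in coMO and 43169 to 44314 in uninjected embryos. The liver fatty acid binding protein fabp10a gave 21.3 and 11.97 in ERbeta2 MO, 2502 and 2164 in coMO, and 1998 and 2618 in uninjected embryos. No marker of the 4 lists was at 0, the lowest value being 1.32 for the intestinal transporter slc15a1b on an ERbeta2 MO array, and fabp10a lay near the offset of 16. Scaled on the poly-A spikes, the differences of the liver markers ambp and kng1 from coMO turned positive, at 0.13 and 0.08, and neither passed. Spike-scaled values of the other liver markers are not given. The part of liver markers in the falls of the 3 genes was not tested.

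With the same shares as background, 7 of 8 tested intestine probe sets were called lower against coMO and 8 of 8 against uninjected embryos, and the summed signals were 3965 to 4214, 17793 to 18668 and 20360 to 23010. For central nervous system glia and myelin, 4 of 5 were called lower and olig2 higher in both comparisons, with sums of 1950 to 2099, 7973 to 8609 and 7058 to 8145. The olig2 difference from coMO, 0.57, was 0.45 and no longer called without the first ERbeta2 MO array (limma adjusted p = 0.119). For skin, 6 of 6 were called lower, with sums of 12718 to 12828, 45723 to 46207 and 40872 to 43254. In all 4 lists the ERbeta2 MO sums lay below the control sums without overlap. Single signals did so for 37% and 36.8% of tested probe sets, but no such share was computed for sums. The lists hold only genes named from tables of changed probe sets. Such sums are carried by the brightest probe sets, as in liver by the pair of tfa, with coMO means of 12261 and 16081. The rises of the dimmer cp and olig2 are hidden in them. The genes tfa, mbpa and krt91 each enter counts and sums with a pair of probe sets. The counts and sums of all 4 lists are for the arrays as deposited, on which the poly-A spikes differed from coMO by -0.93. Scaled on those spikes, krt97 and anxa1b of skin differed from coMO by 0.21 and 0.28 and did not pass. The intestine marker fabp1b.1 differed by 0.61 and was called higher (limma adjusted p = 0.0227). Spike-scaled values of the other markers are not given. The part of these tissues in the falls of acat2, hmgcs1 and msmo1 was not tested.

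The genes whose pattern was most like each member were found by the root mean square distance between centred log2 values over the 6 arrays, among 1736 named genes. Closest to hmgcs1 were the tropomyosin tpm1, at 0.0590, wu:fb77h10, at 0.0712, and the insulin receptor substrate irs2a, at 0.0848. Closest to acat2 were gsto2, at 0.0600, cldn11b, at 0.0871, and gpib, at 0.0952. Closest to msmo1 were the glycogen phosphorylase pygl, at 0.0442, LOC556820, at 0.0828, and gnai2b, at 0.0879.

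The members themselves were less alike than these genes, but these genes were picked as the nearest, so that contrast says nothing about the members. The distance between acat2 and msmo1 was 0.174, that between hmgcs1 and acat2 0.258, and that between hmgcs1 and msmo1 0.321. Ranks were counted over the named and tested probe sets. In the order of likeness to hmgcs1, acat2 ranked 367 and msmo1 534. For acat2, msmo1 ranked 115 and hmgcs1 330, and for msmo1, acat2 ranked 102 and hmgcs1 426.

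Facts of the whole series were as follows. Replicate arrays correlated at 0.975 to 0.987 on the log2 scale over all probe sets, which are not independent replicates, and the median signal per array ran from 198 to 228. The targeted receptor could not be checked, because a morpholino that blocks translation is not tested by an mRNA level, and the receptor's gene was not analysed here.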

How the data were processed

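Expression was measured in 6 samples, 2 in each of 3 groups taken from the titles. The deposited values are linear probe set intensities. Per the submitters' processing notes the tool was MAS5, for which no version or setting is given in the sources used here. Detection calls were not used. The mean after trimming 2% at each end was 500.1 on each array, so the authors' values are scaled per array. Per the file headers, the other 3 deposited tables give a fold change, which is a linear ratio of the authors' own. Directions of the deposited folds were the same as those of the signals for 2713 of 2716, 2651 of 2652 and 21 of 21 probe sets. Gene names came from these tables. Of 3140 probe sets listed, 1669 were named by gene identifier, 42 by symbol, 197 by older symbol and 419 kept the file's symbol, while 219 had several genes and 594 none.

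Intensities were turned into log2(signal + 16) without renormalizing. The 115 controls were removed, as were the dimmest 40% of other probe sets by mean over the 6 arrays. A single limma 3.58.1 model (lmFit, eBayes with a trend, R 4.3.3) covered all arrays, leaving 3 residual degrees of freedom and using no replicate block. Its p-values also rest on a prior spread pooled over probe sets. A call required an adjusted p under 0.05 after Benjamini-Hochberg over all 9302 tested. The fit was tested on simulated data. Alternatives were other offsets, filters and scalings, eBayes without a trend, a replicate block, a fit of only the groups compared, and each array left out in turn. Named are every member, the genes of the pathway lists, up to 4 genes of each other list by smallest p (acat1, and markers named for a count, a low value or a turned direction, were chosen after their values were seen), the 3 genes most like each member and the array controls. Members, lists and tests were chosen with earlier results of these data known.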

Additional observations from a re-analysis of the deposited data

How the results depend on the processing

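The 3 genes kept their direction and their side of the threshold under each alternative that did not use spikes (offset, filter, quantile or median scaling, eBayes without a trend, only the groups compared, replicate block, arrays left out), save that with the lowest 60% left out msmo1 was not tested. With an array left out the difference from coMO ran from -1.34 to -1.24 for hmgcs1, -0.93 to -0.66 for acat2 and -0.86 to -0.61 for msmo1, whose highest limma adjusted p was 0.0354; from uninjected embryos it ran from -1.64 to -1.35, -1.09 to -0.83 and -1.05 to -0.81. Scaled on the hybridization controls, the differences of msmo1 (-0.31) and acat2 (-0.35) from coMO no longer passed. Scaled on the poly-A spikes, that of hmgcs1 (-0.39) from coMO and those of msmo1 (-0.33) and acat2 (-0.34) from uninjected embryos no longer passed, and from coMO msmo1 (0.15) and acat2 (0.12) reversed. Reversed likewise from coMO were scarb1 (0.0745), ambp (0.13), kng1 (0.082), fabp1b.1 (0.61, and 0.14 on the hybridization controls), krt97 (0.21) and anxa1b (0.28). Of these, only fabp1b.1 with the poly-A spikes was called higher (limma adjusted p = 0.0227). Outside the 3 genes a further 26 results were weaker under the spike scalings. The cause beyond the dimmer spikes was not tested.

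Of the cholesterol synthesis list, 7 probe sets were lower against uninjected embryos without a filter, which adds dim probe sets; against coMO 2 were lower with the hybridization controls and 0 with the poly-A spikes, where 1 was lower against uninjected embryos. Calls against coMO were 1594 lower with the lowest 60% left out (fewer tested), 1081 lower and 4726 higher scaled on hybridization controls, and 416 lower and 6410 higher scaled on poly-A spikes; against uninjected embryos 1631, then 1176 and 4302, then 617 and 4948. Between coMO and uninjected embryos the 20 lower and 27 higher became 11 and 10 without a filter, 12 and 4 scaled on hybridization controls, 12 and 1 on poly-A spikes, 5 and 6 without a trend, and 3 to 16 and 7 to 28 with an array left out. Nothing in the labels pairs arrays of the same number, and same-numbered arrays deviated together only weakly (r = 0.0156, 0.0134 and 0.118); a replicate block gave 41 lower and 51 higher there, and limma adjusted p against coMO of 2.52e-09 for hmgcs1, 1.54e-05 for acat2 and 0.000827 for msmo1. With groups of 2 no array was tested as an outlier.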
